A study of Homo sapiens with 2 samples.

Results

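A set of 10 genes of bone morphogenetic protein (BMP) signalling was followed across adipose-derived mesenchymal stem cells treated with TGFB1 and left untreated. They were the 4 ID genes (ID1, ID2, ID3 and ID4), the feedback genes BAMBI and SMAD6, the receptor-activated SMAD gene SMAD9, the ligand genes BMP4 and GDF6, and the antagonist gene GREM1. They were chosen by name, as 10 of the 38606 genes in the count matrix, with earlier results of these data known. All 10 were kept whatever their level. The study, on IL11-dependent interplay of tumour and stroma in melanoma, deposited 2 libraries of single cells. One library held commercial adipose-derived cells given 10 ng/mL TGFB1 for 24 h, and the other held the same kind of cells with no treatment; both cultures had been grown close to confluence and starved overnight beforehand. With 1 library per group there is no replicate, so no test of the treatment was possible, and every interval below is a 95% interval that covers counting error only. TGFB1 effects and differences between the 2 cultures or libraries therefore cannot be told apart.

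BMP ligands bind pairs of type I and type II receptors on the cell surface, and the receptors then phosphorylate SMAD1, SMAD5 and SMAD9, which enter the nucleus with SMAD4. ID genes are the best known direct targets of these SMADs: their proteins lack a DNA-binding region and hold E proteins such as TCF3, TCF4 and TCF12 away from DNA. The same SMADs induce their own brakes, among them SMAD6, an inhibitory SMAD, and BAMBI, a receptor-like protein without kinase activity, while GREM1 is a secreted protein that traps BMP ligands outside the cell. BMP4 is known to commit mesenchymal stem cells to fat and bone fates, GDF6 is known from joint and cartilage development, and TGFB1 itself acts mainly through SMAD2 and SMAD3.

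To show how the known SMAD-binding letters are placed in these genes, the 250 bases before the start of 4 members are printed from RefSeq (GRCh38.p14). ID1 and ID3 are the pair of ID targets whose levels are compared below, and BAMBI and SMAD6 are feedback genes that were picked, after the matches were seen, for the GC-rich and the palindromic motif. The stretches are chr20:31605039-31605288 on the plus strand for ID1, chr1:23559502-23559751 on the minus strand for ID3, chr10:28677271-28677520 on the plus strand for BAMBI and chr15:66701986-66702235 on the plus strand for SMAD6. Each is written 5′ to 3′ on the gene's strand. Capitals mark GGCGCC, the GC-rich element of SMAD1 and SMAD5, GTCTAGAC, the palindrome of SMAD3 and SMAD4, and CAGAC, the short SMAD core, found on either strand.
ID1: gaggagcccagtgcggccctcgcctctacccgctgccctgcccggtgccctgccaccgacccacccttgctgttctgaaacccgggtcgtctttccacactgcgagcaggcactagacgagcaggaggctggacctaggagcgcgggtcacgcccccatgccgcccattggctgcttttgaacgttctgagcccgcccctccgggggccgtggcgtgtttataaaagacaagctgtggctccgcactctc
ID3: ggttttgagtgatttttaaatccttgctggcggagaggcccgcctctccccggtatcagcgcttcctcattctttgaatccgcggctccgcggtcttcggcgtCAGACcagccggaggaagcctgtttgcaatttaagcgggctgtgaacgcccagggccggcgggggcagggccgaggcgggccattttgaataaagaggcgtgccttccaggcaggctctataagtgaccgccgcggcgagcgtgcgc
BAMBI: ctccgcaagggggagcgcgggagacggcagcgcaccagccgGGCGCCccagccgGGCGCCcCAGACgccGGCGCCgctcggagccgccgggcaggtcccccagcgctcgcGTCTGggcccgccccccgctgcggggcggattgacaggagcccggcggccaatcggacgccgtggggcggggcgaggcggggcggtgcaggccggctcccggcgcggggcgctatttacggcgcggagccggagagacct
SMAD6: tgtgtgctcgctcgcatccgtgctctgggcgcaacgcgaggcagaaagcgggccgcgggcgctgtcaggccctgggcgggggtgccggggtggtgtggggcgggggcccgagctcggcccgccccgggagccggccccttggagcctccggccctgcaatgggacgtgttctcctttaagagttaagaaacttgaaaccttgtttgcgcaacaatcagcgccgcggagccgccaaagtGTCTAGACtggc
The BAMBI stretch held 3 GGCGCC and 2 CAGAC, the SMAD6 stretch held 1 GTCTAGAC that began 12 bases before the start, the ID3 stretch held 1 CAGAC, and the ID1 stretch held none of the 3 motifs. Sites farther than 250 bases before a start were not looked at, so a stretch without a motif does not mean that the gene lacks one.

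RefSeq promoter windows (250 bases before to 50 bases after a start) were found for 9 of the 10 members, in 12 windows because BMP4 and GREM1 had several starts. GGCGCC was present in 1 or more windows of 3 members (BAMBI, BMP4 and GREM1), and in 19.2% of the 35116 windows of all genes. GTCTAGAC was present in the SMAD6 window only among those of the members, and in 0.202% of all windows. CAGAC was present in windows of 6 members and in 45.3% of all windows, and none of the 3 motifs contains another. The E-box CANNTG was present in windows of 5 members and in 68.7% of all windows. Counts of members and shares of windows are unlike measures, since BMP4 and GREM1 had several windows and so more chances of a match. A match of letters is a description and does not show that a factor is bound.

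The 12555 TGFB1 cells carried 208991941 unique molecular identifiers (UMIs, each standing for 1 counted transcript) in all and 15134 in the median cell, while the 8101 untreated cells carried 169011524 UMIs in all and 19249 in the median cell. Levels are given as CPM, the usual scaling of counts to the library total, and genes are counted where they reached 5 CPM in either library. The labelled cell type held against its markers: 11 of 11 mesenchymal stromal markers reached that level, with summed levels of 25862 CPM in TGFB1 cells and 26825 CPM in untreated cells. Of these 11 markers 5 were nevertheless at least 1.5-fold lower in TGFB1 cells (DCN, PDGFRA, LUM, NT5E and VIM, by 1.60-fold to 2.61-fold), while COL1A1 and COL1A2, which make up most of the sum, were 1.37-fold and 1.20-fold higher. All 5 adipocyte markers stayed below it, with ADIPOQ at 0 UMIs in both libraries. Of the other marker lists, 2 of 8 mural, 2 of 7 endothelial, 1 of 5 leukocyte and 1 of 4 epithelial markers reached it, with sums of 69.6, 18.3, 17.0 and 83.4 CPM in TGFB1 cells and 113, 14.9, 25.1 and 37.9 CPM in untreated cells; CDH5 was at 0 UMIs in TGFB1 cells, KDR at 0 in untreated cells and CD3E at 0 in both. The 8 genes of a TGFB response list, IL11 among them, were all at least 1.5-fold higher, with summed levels of 8391 CPM in TGFB1 cells and 2514 CPM in untreated cells. The authors' deposited clusters nearly coincided with the libraries. Clusters 0, 3, 4, 5 and 8 held 11833 TGFB1 cells and 63 untreated cells, clusters 1, 2 and 6 held 123 TGFB1 cells and 7623 untreated cells, and clusters 7, 9 and 10 held 599 TGFB1 cells and 415 untreated cells. Both libraries held 18 shared cell barcodes; of the TGFB1 cells that carried them 16 lay in clusters 0, 3, 4, 5 and 8 and 0 in clusters 1, 2 and 6, while of the untreated cells 13 lay in clusters 1, 2 and 6 and 0 in the other set.

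Across the whole libraries, 4 of the 10 members were at least 1.5-fold higher in TGFB1 cells (ID3, BAMBI, SMAD9 and GDF6), 1 was at least 1.5-fold lower (BMP4), and 5 lay between these limits. Of the 10928 genes that reached 5 CPM in a library, 8.45% passed 1.5-fold upward and 14.2% passed it downward. Because the members were chosen with earlier results of these data known, setting them beside all genes is a description and tests nothing. At a threshold of 2-fold, ID3 and GDF6 were higher and BMP4 was lower, beside 3.61% of all genes higher and 6.05% lower. The median log2 ratio of TGFB1 over untreated was 0.21 over the 10 members and -0.10 over all genes. Of all genes past the threshold 37.3% were higher, against 54.8% under TMM scaling and 59.3% under median-of-ratios scaling, choices that moved the median of all genes by 0.15 and 0.19 on the log2 scale. All 10 members kept their side of the 1.5-fold threshold under both scalings.

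**Figure D1:**
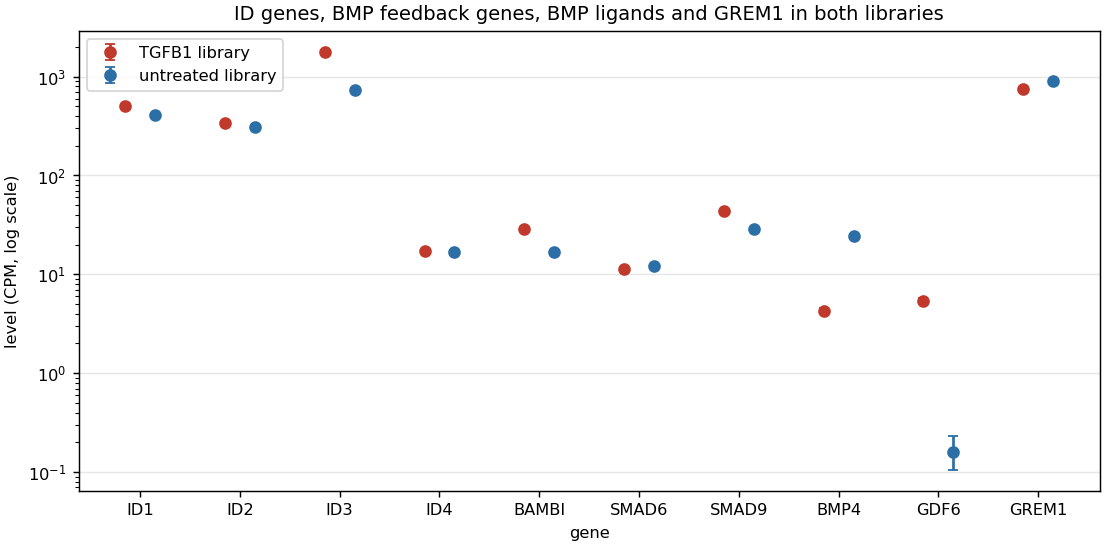
Level of each of the 10 genes in the TGFB1 library (red, left of each pair) and the untreated library (blue), in CPM on a log axis, with exact Poisson 95% intervals that are mostly narrower than the points. ID3 lies at 1764 and 741 CPM, BMP4 at 4.26 and 24.5 CPM and GDF6 at 5.38 and 0.160 CPM in TGFB1 and untreated cells.

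Among the ID genes only ID3 passed the threshold. ID3 had 1764 CPM in TGFB1 cells and 741 CPM in untreated cells, from 368562 and 125167 UMIs, a ratio of 2.38 (2.37 to 2.40). ID1 had 505 CPM in TGFB1 cells and 411 CPM in untreated cells, a ratio of 1.23 (1.22 to 1.24). Both genes were thus higher in TGFB1 cells, ID3 by the larger factor. ID2 had 337 CPM in TGFB1 cells and 310 CPM in untreated cells, a ratio of 1.09 (1.08 to 1.10). ID4 had 17.2 CPM in TGFB1 cells and 16.9 CPM in untreated cells, and the interval of its ratio ran from 0.971 to 1.07. The 4 genes of the family, which share the same type of protein, thus did not move by a common factor: the number of ID3 UMIs per ID1 UMI was 3.49 in TGFB1 cells and 1.80 in untreated cells. That quotient is used here to compare libraries and not the 2 genes, whose transcripts may be captured with unequal efficiency.

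The feedback and SMAD genes differed among themselves as well. BAMBI, the kinase-free pseudoreceptor, had 28.8 CPM in TGFB1 cells and 17.0 CPM in untreated cells, a ratio of 1.70 (1.62 to 1.77). SMAD9, one of the receptor-activated SMADs, had 43.7 CPM in TGFB1 cells and 28.4 CPM in untreated cells, a ratio of 1.54 whose interval (1.48 to 1.59) held the threshold. SMAD6, the inhibitory SMAD, had 11.3 CPM in TGFB1 cells and 12.1 CPM in untreated cells, a ratio of 0.930 (0.877 to 0.988). The sign of this small difference turned under TMM or median-of-ratios scaling, to log2 ratios of 0.05 and 0.09, so no direction is given for SMAD6. Its relative SMAD7, the inhibitory SMAD that acts on both the TGFB and BMP receptors, had 35.4 CPM in TGFB1 cells and 15.2 CPM in untreated cells, a ratio of 2.33 (2.23 to 2.44).

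The 2 ligand genes stood at opposite ends. BMP4 had 4.26 CPM in TGFB1 cells and 24.5 CPM in untreated cells, from 891 and 4139 UMIs, and was 5.74-fold lower (5.34 to 6.18). GDF6 had 5.38 CPM in TGFB1 cells and 0.160 CPM in untreated cells, from 1125 and 27 UMIs, and was 33.7-fold higher (23.0 to 51.4). The 27 UMIs in untreated cells came from 23 cells, and the share of cells with a GDF6 UMI there, 0.284%, was below the 0.395% with a UMI of PTPRC, a leukocyte gene that these cells should lack. The untreated value is therefore near that of this 1 gene, and the ratio depends on it. The other leukocyte markers had 4070 (CD68), 137 (CD14), 5 (LYZ) and 0 (CD3E) UMIs in untreated cells, so PTPRC alone does not set a background level. Whether the 27 UMIs are background was not tested.

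Of 13 other ligand genes of the pathway, 2 reached 5 CPM, of which 1 was higher and none lower. BMP6 had 295 CPM in TGFB1 cells and 54.0 CPM in untreated cells and was 5.46-fold higher (5.34 to 5.58), and GDF11 had 7.55 CPM in TGFB1 cells and 7.80 CPM in untreated cells. Below that minimum, and named after their values were seen, lay ligand genes in both directions. GDF5, a ligand of the same subgroup as GDF6, stayed under 5 CPM in both libraries, with 0.268 CPM in TGFB1 cells and 4.14 CPM in untreated cells from 56 and 699 UMIs, a 15.4-fold lower level (11.7 to 20.6). BMP2 had 1.75 CPM in TGFB1 cells and 3.41 CPM in untreated cells, and GDF10 had 0.751 CPM in TGFB1 cells and 0.290 CPM in untreated cells.

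GREM1, the secreted antagonist, had 751 CPM in TGFB1 cells and 897 CPM in untreated cells, a ratio of 0.838 (0.832 to 0.844) that did not reach the threshold. The number of GREM1 UMIs per BMP4 UMI was 176 in TGFB1 cells and 36.6 in untreated cells, a difference that came mostly from BMP4, since GREM1 itself differed little. Counts do not say how much GREM1 or BMP4 protein was secreted.

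Of 57 other genes of BMP signalling, 31 reached 5 CPM in either library; 9 of these were at least 1.5-fold higher in TGFB1 cells, 3 were at least 1.5-fold lower and 19 lay between, beside the 8.45% and 14.2% of all genes. The 9 and 3 are 29.03% and 9.68% of the 31, and the median log2 ratio of the 31 was 0.09. This list was also chosen with earlier results of these data known, so these shares are descriptions. Of 5 receptor genes counted, 2 were higher: the type I receptor BMPR1B had 36.4 CPM in TGFB1 cells and 11.1 CPM in untreated cells (3.29-fold), and the type II receptor BMPR2 had 258 CPM in TGFB1 cells and 133 CPM in untreated cells (1.94-fold). The other 3 stayed within 1.5-fold, with 84.6 and 64.4 CPM for BMPR1A, 56.6 and 48.4 CPM for ACVR1 and 44.0 and 62.5 CPM for ACVR2A in TGFB1 and untreated cells. The signal-carrying SMADs were close to even, with 29.2 and 30.6 CPM for SMAD1, 77.9 and 78.7 CPM for SMAD5 and 49.6 and 46.6 CPM for SMAD4 in TGFB1 and untreated cells.

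Of 4 SMAD regulators, 2 were higher: SMURF1, a ubiquitin ligase for receptor SMADs, had 64.6 CPM in TGFB1 cells and 39.7 CPM in untreated cells, and LEMD3, a nuclear envelope protein that restrains SMAD signalling, had 27.9 CPM in TGFB1 cells and 17.6 CPM in untreated cells. Of 8 antagonists and extracellular modulators counted, 2 were higher and 2 lower. FSTL3, a follistatin-like secreted protein that binds activins, had 169 CPM in TGFB1 cells and 38.3 CPM in untreated cells (4.41-fold), and CRIM1, a membrane protein with BMP-binding repeats, had 619 CPM in TGFB1 cells and 355 CPM in untreated cells (1.74-fold). FST, a secreted follistatin, had 87.7 CPM in TGFB1 cells and 132 CPM in untreated cells (1.5-fold lower), and BMPER, a secreted BMP-binding protein, had 105 CPM in TGFB1 cells and 161 CPM in untreated cells (1.53-fold lower). These 2 lay at the edge of the threshold and did not pass it under TMM or median-of-ratios scaling, with equal weight per cell, or without cells that held a UMI of MKI67 or TOP2A; RGMB was the only lower gene under each of these. With thinned cells FST missed the threshold and ATOH8 passed it. RGMB, a BMP co-receptor, had 25.2 CPM in TGFB1 cells and 55.8 CPM in untreated cells and was 2.21-fold lower (2.14 to 2.29).

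Among the partners of ID proteins, TCF4 had 504 CPM in TGFB1 cells and 229 CPM in untreated cells, a ratio of 2.20 (2.17 to 2.23). TCF3 had 18.5 CPM in TGFB1 cells and 16.8 CPM in untreated cells, and TCF12 had 188 CPM in TGFB1 cells and 164 CPM in untreated cells, both within 1.5-fold. Of the other target genes listed, MSX1 (21.6 CPM in TGFB1 cells and 22.4 CPM in untreated cells) and ATOH8 (8.06 CPM in TGFB1 cells and 11.9 CPM in untreated cells) reached 5 CPM, and neither passed the threshold in the whole libraries.

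**Figure D2:**
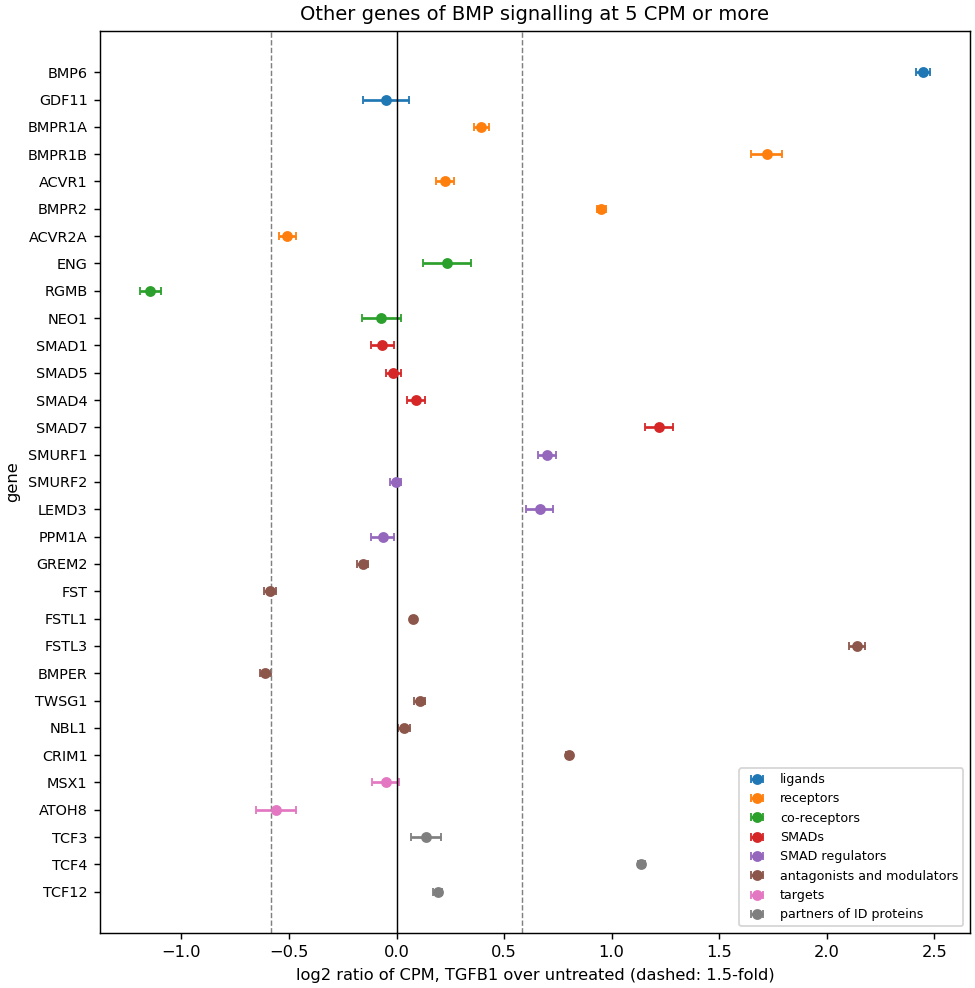
Log2 ratio of CPM, TGFB1 over untreated, for the 31 other genes of BMP signalling that reached 5 CPM, coloured by role, with exact 95% intervals for counting error; dashed lines mark 1.5-fold. The plot has 9 points beyond the right line, led by BMP6 at 2.45, and 3 beyond the left line, led by RGMB at -1.14.

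The levels were then compared over the authors' clusters, split by library, for the 14 groups with 50 cells or more (9 of TGFB1 cells and 5 of untreated cells). The clusters were made from the expression of the same cells, so these values describe the groups and test nothing. ID3 lay between 1266 and 2314 CPM in 8 of the 9 TGFB1 groups, with clusters 4 and 7 highest at 2314 and 1928 CPM, and at 784 CPM in the TGFB1 cells of cluster 1. In untreated cells it lay at 530 CPM in cluster 6, 647 CPM in cluster 1, 847 CPM in cluster 2, and 1430 and 1431 CPM in clusters 7 and 9, whose intervals overlapped each other. The untreated cells of clusters 7 and 9 therefore reached into the range of TGFB1 cells. The summed level of the 8-gene TGFB response list was 7092 to 9059 CPM in the same 8 TGFB1 groups and 2969 CPM in the TGFB1 cells of cluster 1. In untreated cells it was 4674 and 3271 CPM in clusters 7 and 9, and 2092 to 2701 CPM in clusters 1, 2 and 6. Inside the 8 TGFB1 groups its order differed from that of ID3. Cluster 7 had the lowest sum, and cluster 3 had the highest sum with ID3 at 1593 CPM. The part of this list in the ID3 levels was not tested.

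ID1 and ID2 overlapped widely between libraries. ID1 ranged from 307 CPM in cluster 10 to 664 CPM in cluster 4 in TGFB1 cells, and from 359 CPM in cluster 1 to 698 CPM in cluster 9 in untreated cells. The TGFB1 clusters 5, 8, 0, 9 and 3, between 499 and 440 CPM, formed a run in which each interval overlapped the next. ID2 ranged from 200 CPM in cluster 8 to 561 CPM in cluster 7 in TGFB1 cells, and from 183 CPM in cluster 6 to 536 CPM in cluster 9 in untreated cells. ID4 ranged from 10.6 CPM in cluster 8 to 31.9 CPM in cluster 7 in TGFB1 cells, and from 9.64 CPM in cluster 6 to 36.1 CPM in cluster 9 in untreated cells.

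Clusters 3 and 8 of TGFB1 cells and cluster 6 of untreated cells had the lowest ID2, ID4, BAMBI and GREM1 levels of their libraries. ID2 had 210 and 200 CPM in the TGFB1 clusters and 183 CPM in the untreated one, BAMBI had 9.51 and 8.79 CPM against 5.17 CPM, and GREM1 had 494 and 415 CPM against 499 CPM. The BAMBI intervals of TGFB1 clusters 3 and 8 overlapped that of TGFB1 cluster 1, at 10.7 CPM from 12 UMIs. Their ID4 intervals overlapped that of TGFB1 cluster 9, at 16.1 CPM. Clusters 8 and 6 were also those with MKI67 and TOP2A, 2 genes of dividing cells: their summed level was 382 CPM in TGFB1 cluster 8 and 605 CPM in untreated cluster 6, beside 20.5 CPM over all TGFB1 cells and 77.8 CPM over all untreated cells. Cluster 3 of TGFB1 cells, at 3.33 CPM, lacked such a level. IL11 was highest in clusters 8 and 3 of TGFB1 cells, at 231 and 183 CPM, against 26.0 to 160.0 CPM in the other TGFB1 groups and 2.03 to 8.18 CPM in untreated cells. The part of cell division in these cluster levels was not tested. Cells with a UMI of MKI67 or TOP2A were left out for the whole-library ratios only, where every member kept its side of the threshold.

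**Figure D3:**
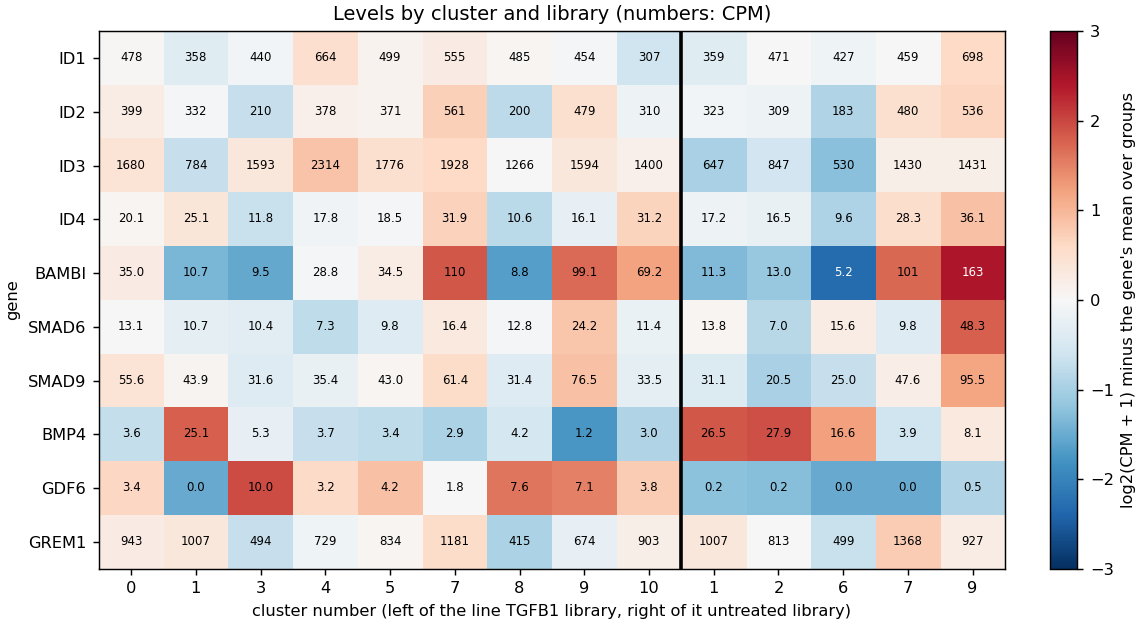
Level of each member in the 14 groups of cluster and library with 50 cells or more; the numbers are CPM, and colours show log2(CPM + 1) minus the gene's mean over the 14 groups. Left of the line are TGFB1 cells and right of it untreated cells. GDF6 is above and BMP4 below its mean in most TGFB1 groups, cluster 1 excepted, and BAMBI is reddest in clusters 7 and 9 of both libraries.

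BAMBI varied more over clusters than over libraries. In TGFB1 cells it had 110 CPM in cluster 7, 99.1 CPM in cluster 9 and 69.2 CPM in cluster 10, against 8.79 to 35.0 CPM in the other 6 groups. In untreated cells it had 163 CPM in cluster 9 and 101 CPM in cluster 7, against 5.17 to 13.0 CPM in clusters 1, 2 and 6. Clusters 7, 9 and 10 held 5.30% of all UMIs of TGFB1 cells and 5.65% of those of untreated cells, but 18.8% of the BAMBI UMIs of TGFB1 cells and 37.3% of those of untreated cells. Without these 3 clusters BAMBI had 24.6 CPM in TGFB1 cells and 11.3 CPM in untreated cells, a ratio of 2.18 in place of 1.70. The epithelial markers, of which only KRT18 reached 5 CPM over a whole library, moved with most of these groups. Their summed level was 255, 86.7 and 306 CPM in clusters 7, 9 and 10 of TGFB1 cells, beside 31.3 to 121 CPM in the other TGFB1 groups, and 301 and 219 CPM in clusters 7 and 9 of untreated cells, beside 16.3 to 23.1 CPM in the other untreated groups. The mural markers summed to 291 CPM in cluster 10 of TGFB1 cells, beside 48.4 to 123 CPM in the other TGFB1 groups. The part of these markers in the BAMBI levels was not tested. In cluster 7 the mesenchymal stromal markers summed to 33074 CPM in TGFB1 cells and 34274 CPM in untreated cells of the cluster.

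SMAD9 ranged from 31.4 CPM in cluster 8 to 76.5 CPM in cluster 9 in TGFB1 cells, and from 20.5 CPM in cluster 2 to 95.5 CPM in cluster 9 in untreated cells. SMAD6 ranged from 7.34 CPM in cluster 4 to 24.2 CPM in cluster 9 in TGFB1 cells, where each interval overlapped that of its neighbour in the order, and from 6.96 CPM in cluster 2 to 48.3 CPM in cluster 9 in untreated cells. Cluster 9 thus had the highest value of both SMAD genes in each library, from 183 TGFB1 cells and 108 untreated cells. In TGFB1 cells its intervals overlapped those of cluster 7 for both genes. In untreated cells its intervals lay above those of all other clusters.

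BMP4 lay between 1.24 and 5.32 CPM in 8 of the 9 TGFB1 groups, and at 25.1 CPM in the 56 TGFB1 cells of cluster 1. In untreated cells it had 27.9 CPM in cluster 2, 26.5 CPM in cluster 1 and 16.6 CPM in cluster 6, but 8.13 CPM in cluster 9 and 3.94 CPM in cluster 7. The untreated cells of cluster 7 were therefore as low in BMP4 as most TGFB1 groups. GDF6 lay between 1.84 CPM in cluster 7 and 10.0 CPM in cluster 3 in 8 TGFB1 groups and between 0 and 0.508 CPM in untreated cells. Clusters 3, 8 and 9 of TGFB1 cells, at 10.0, 7.58 and 7.13 CPM, had overlapping intervals. After the thinning described below, a GDF6 UMI was found in 6.81%, 4.70% and 0.763% of the TGFB1 cells of these clusters. The cluster 9 share came from 1 of 131 cells, so its level may rest on few cells. Its interval does not cover such an uneven spread. GREM1 ranged from 415 CPM in cluster 8 to 1181 CPM in cluster 7 in TGFB1 cells, and from 499 CPM in cluster 6 to 1368 CPM in cluster 7 in untreated cells.

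**Figure D4:**
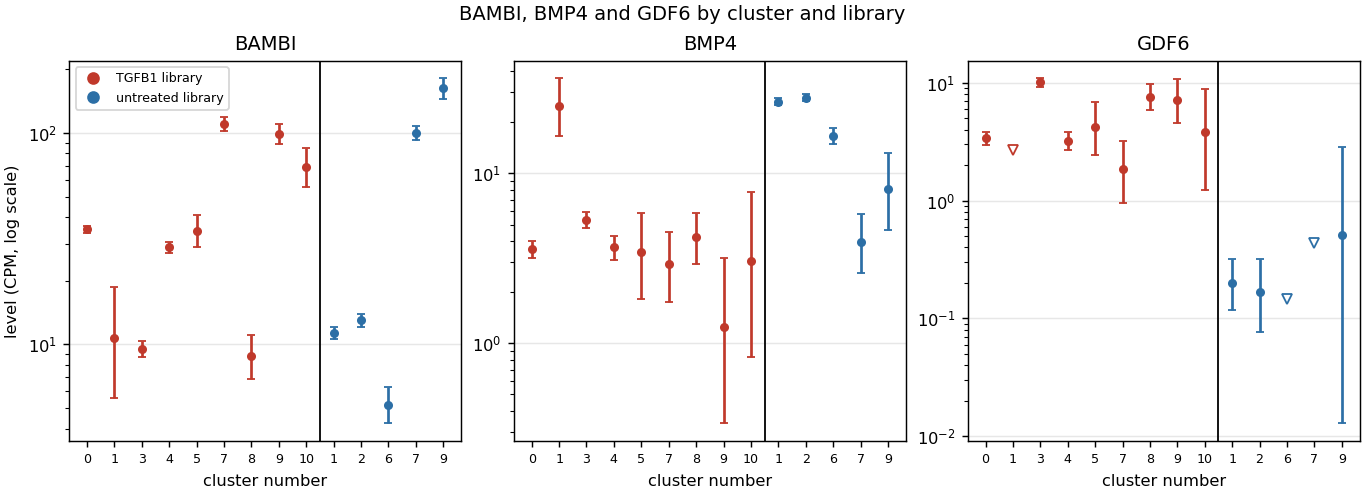
CPM of BAMBI, BMP4 and GDF6 by cluster for TGFB1 cells (red, left of the line) and untreated cells (blue), on log axes, with exact Poisson 95% intervals; open triangles stand for groups with 0 UMIs and are drawn at the level of 3 UMIs. BAMBI is high in clusters 7 and 9 of both libraries, and BMP4 is at 25.1 CPM in the TGFB1 cells of cluster 1.

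Clusters 1, 7 and 9 held 50 cells or more of each library, so the libraries could be compared inside them. In cluster 7 (303 TGFB1 cells and 274 untreated cells), where 5.03% of 10902 genes passed 1.5-fold upward and 4.95% downward, 1 member counted there was higher (SMAD6) and none lower. SMAD6 had 107 UMIs in TGFB1 cells and 67 in untreated cells, a ratio of 1.67 (1.22 to 2.31). GDF6, under 5 CPM in both, had 12 UMIs in TGFB1 cells and 0 in untreated cells. It was 4.19-fold higher when the untreated cells are set to 3 UMIs over the group, and the exact lower limit of its ratio was 2.91. ID3 had a ratio of 1.35 (1.31 to 1.38) there, and BAMBI one of 1.10 (0.987 to 1.22). BMP4 had only 19 UMIs in TGFB1 cells and 27 in untreated cells, and its ratio of 0.738 had an interval from 0.388 to 1.38.

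In cluster 9 (183 TGFB1 cells and 108 untreated cells), 9.69% of 11843 genes passed 1.5-fold upward and 17.8% downward. There 5 members were lower: ID1 at 454 CPM in TGFB1 cells and 698 CPM in untreated cells, ID4 at 16.1 CPM against 36.1 CPM, BAMBI at 99.1 CPM against 163 CPM, SMAD6 at 24.2 CPM against 48.3 CPM, and BMP4 with 4 UMIs against 16 UMIs in untreated cells. GDF6 was higher, with 23 UMIs in TGFB1 cells and 1 in untreated cells, a ratio of 14.0 with an interval from 2.28 to 578. After the thinning described below, a GDF6 UMI was found in 1 of 131 TGFB1 cells and 0 of 85 untreated cells of cluster 9. The interval does not cover an uneven spread of UMIs over cells. Whether few cells held the 23 UMIs was not tested. ID3 had a ratio of 1.11 (1.06 to 1.17) there, smaller than the 2.38 of the whole libraries. BMP6 was higher inside both clusters, with 369 CPM in TGFB1 cells and 161 CPM in untreated cells of cluster 7, and with 275 CPM in TGFB1 cells and 56.9 CPM in untreated cells of cluster 9.

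The 56 TGFB1 cells in cluster 1 lay near the 3687 untreated cells of that cluster in the member genes. They are among the 123 TGFB1 cells grouped with untreated cells, and whether those cells carry the right library label was not tested, so their values may not be values of treated cells. Over cluster 1, 6.42% of 11310 genes passed 1.5-fold upward and 6.87% downward, and no member with 5 CPM in either library was past the threshold. BMP4 had 25.1 CPM in TGFB1 cells and 26.5 CPM in untreated cells, GREM1 1007 CPM in both, and ID1 358 CPM in TGFB1 cells and 359 CPM in untreated cells. GDF6 had 0 UMIs in TGFB1 cells, with an exact upper limit of 3.30 CPM, and 17 UMIs in untreated cells. That limit lies above the 3.19 and 1.84 CPM of TGFB1 clusters 4 and 7, so GDF6 does not place these cells with either library. ID3 had 784 CPM in TGFB1 cells and 647 CPM in untreated cells, a ratio of 1.21 (1.13 to 1.30), and BMP6 had 123 CPM in TGFB1 cells and 61.7 CPM in untreated cells, a ratio of 1.99. The summed level of the TGFB response list was 2969 CPM in these TGFB1 cells and 2286 CPM in the untreated cells of the cluster. Without cells that were grouped with the other library the log2 ratio of BMP4 was -2.60, against -2.52 with them.

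To compare shares of cells, every cell was thinned to 7500 UMIs, which left 9330 TGFB1 cells and 7646 untreated cells and removed 3225 shallower TGFB1 cells and 455 shallower untreated cells. A UMI of ID3 was found in 99.6% of TGFB1 cells and 89.5% of untreated cells after thinning, and in 98.96% and 94.8% of all cells without it. ID1 was found in 87.9% of TGFB1 cells and 75.8% of untreated cells after thinning (90.0% and 86.8% without). For ID2 the thinned shares were 83.0% in TGFB1 cells and 79.8% in untreated cells, while the shares without thinning, 88.7% in TGFB1 cells and 91.5% in untreated cells, ran the other way. The thinned ID2 shares lay closer together than those of ID1 and ID3. BAMBI was found in 16.9% of TGFB1 cells and 8.78% of untreated cells after thinning (26.6% and 18.2% without), and SMAD9 in 26.1% of TGFB1 cells and 17.8% of untreated cells (40.9% and 37.2% without).

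BMP4 was found in 3.11% of TGFB1 cells and 15.4% of untreated cells after thinning, and in 6.13% and 32.3% without. GDF6 was found in 3.42% of TGFB1 cells and 0.0916% of untreated cells after thinning (6.48% and 0.284% without). PTPRC, the leukocyte gene used for comparison, was found in 0.204% of TGFB1 cells and 0.105% of untreated cells after thinning. The GDF6 share lay above that of PTPRC in TGFB1 cells and not in untreated cells. GREM1 was found in 93.4% and 94.6%, ID4 in 10.4% and 9.97%, and SMAD6 in 7.82% and 8.38% of TGFB1 and untreated cells after thinning. Over clusters the thinned BAMBI share ran from 3.77% to 48.9% in TGFB1 cells and from 2.43% to 61.2% in untreated cells, with cluster 9 at the top in both. The 3.77% came from 2 of 53 TGFB1 cells of cluster 1, and cluster 8 was next lowest at 5.02%. Cluster 5 of TGFB1 cells, with a median of 2571 UMIs, kept under 50 cells after thinning and is not part of this range.

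The distribution over cells showed that the higher ID3 level was spread over most cells. After thinning, the median cell held 12 ID3 UMIs in TGFB1 cells and 4 in untreated cells, and the cell at the 90th percentile held 24 in TGFB1 cells and 12 in untreated cells. The 10% of cells with the most ID3 held 21.5% of its UMIs in TGFB1 cells and 32.0% in untreated cells. ID1 had a median of 3 UMIs in TGFB1 cells and 2 in untreated cells with the same 90th percentile of 8, and its share of cells at 0 was smaller in TGFB1 cells. GREM1 had a median of 5 UMIs in both. BAMBI reached at most 5 UMIs in a thinned TGFB1 cell and 13 in a thinned untreated cell, and its variance over its mean was 1.49 in TGFB1 cells and 2.00 in untreated cells.

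**Figure D5:**
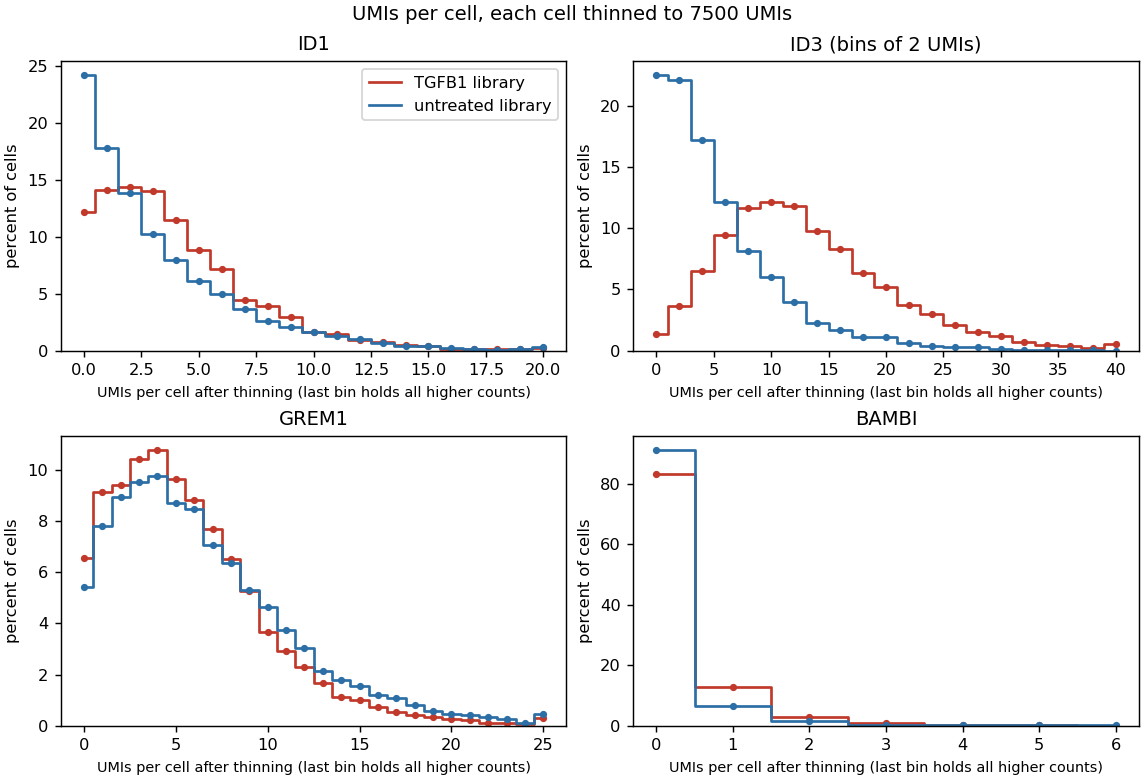
Percent of cells by number of UMIs of ID1, ID3, GREM1 and BAMBI after thinning each cell to 7500 UMIs, for TGFB1 cells (red) and untreated cells (blue); the last bin holds all higher counts. The ID3 curve of TGFB1 cells lies to the right, with a median of 12 UMIs in TGFB1 cells and 4 in untreated cells, while the GREM1 curves nearly coincide.

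Within each library the members were only loosely tied from cell to cell. Of the 45 pairs of members, 36 in TGFB1 cells and 34 in untreated cells had a Pearson correlation of log thinned UMIs below 0.1 in size, which in sparse counts is no finding. The strongest pair was ID1 with ID3, at 0.39 over 9330 TGFB1 cells and 0.48 over 7646 untreated cells. ID1 with ID2 had 0.22 in TGFB1 cells and 0.24 in untreated cells, and ID2 with ID3 had 0.21 in TGFB1 cells and 0.32 in untreated cells. ID2 with GREM1 had 0.26 in TGFB1 cells and 0.20 in untreated cells, and ID3 with GREM1 had 0.10 in TGFB1 cells and 0.22 in untreated cells. Cells of 1 library share their preparation, so these values describe each library and carry no test.

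Because IL11 is the subject of the study, thinned TGFB1 cells were also divided into 4819 with an IL11 UMI and 4511 without one. An IL11 UMI was found in 41.3%, 51.7% and 58.9% of TGFB1 cells thinned to 5000, 7500 and 10000 UMIs. The split thus depends on depth, and cells without a UMI may still express IL11. None of the 10 members differed by 1.5-fold, and neither did most genes: 0.125% of 10369 passed the threshold upward and 0.434% downward. GDF6 came closest, with 6.11 CPM in cells with IL11 and 4.14 CPM in cells without, a ratio of 1.48 (1.19 to 1.84). BAMBI had 26.6 CPM with IL11 and 33.8 CPM without, and ID2 had 315 CPM with IL11 and 381 CPM without. ID3 had 1854 CPM with IL11 and 1761 CPM without, and ID1 had 515 CPM with IL11 and 523 CPM without. Clusters contributed unequally to both sets, and inside cluster 4 the GDF6 ratio was 2.14 (1.23 to 3.87) from 45 UMIs with IL11 and 19 UMIs without, against 1.05 in cluster 0, 1.21 in cluster 3 and 0.688 (0.235 to 2.05, from 9 and 8 UMIs) in cluster 8. The BAMBI ratio was below 1 in clusters 0 and 4 (0.897 and 0.894) and above 1 in clusters 3 and 8 (1.35 and 1.96), with intervals that held 1 in each.

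Patterns over the 14 groups of cluster and library tied some members together. The Pearson correlation of log2(CPM + 1) was 0.88 for ID2 with BAMBI, 0.85 for ID4 with GREM1, 0.80 for BAMBI with SMAD9, -0.85 for ID3 with BMP4 and -0.73 for BMP4 with GDF6. The groups share 2 libraries and differ in depth, so these are descriptions. Among the same 10928 genes, the pattern most like ID3 was that of LIN7B (0.95), followed by FSTL3 (0.94) and CDKN2B (0.93), and the pattern most like BAMBI was that of TGFB3 (0.98) and PALM (0.97). The closest gene was SLC30A1 for ID2 (0.96), CYP2U1 for ID4 (0.97), NEFL for BMP4 (0.97), BBOF1 for GDF6 (0.95), CHKA for SMAD6 (0.95), IL13RA1 for SMAD9 (0.93), CCPG1 for GREM1 (0.93) and SRRM3 for ID1 (0.79). Of the 30 closest genes, 3 for each member, 25 were found again with log2(CPM + 5), 19 with groups of 100 cells or more, and 8 with Spearman's correlation.

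Some members overlap other genes in the annotation, and the sources used here do not say whether strand was used in counting. ID2-AS1, on the opposite strand of ID2, had 1.25 CPM in TGFB1 cells and 1.89 CPM in untreated cells, GREM1-AS1 had 3.81 CPM in TGFB1 cells and 2.88 CPM in untreated cells, and SMAD9-IT1, inside SMAD9 on the same strand, had 0.502 CPM in TGFB1 cells and 0.367 CPM in untreated cells. These counts are small beside those of ID2, GREM1 and SMAD9. The annotation also places AL022068.1 over ID4 on the opposite strand and AC013564.1 over SMAD6 on the same strand. Their counts were not looked at. Over GREM1 it names AC090877.2, and whether that is GREM1-AS1 was not checked.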

How the data were processed

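Single cells of 2 libraries, 1 per group, were profiled by 10x sequencing. Per the submitters' processing notes, Cell Ranger 9.0.1 and Seurat were used with GRCh38; the annotation, use of strand and doublet removal are not given in the sources used here. Whole-number counts of UMIs per gene and cell were deposited for 20656 cells, and the percent of mitochondrial UMIs per cell, with libraries and clusters per the file headers. The lowest number of genes in a cell was 502 in TGFB1 cells and 505 in untreated cells, and the highest mitochondrial share was 5.00% in both. No further cell filter and no doublet caller was applied.

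UMIs were summed per library and per cluster and library. Levels are CPM of all UMIs, with exact Poisson intervals; ratios have exact conditional binomial intervals and shares exact Clopper-Pearson intervals, all at 95% and all for counting error only. A count of 0 was set to 3 UMIs over the group for a bound. Calls needed 1.5-fold and 5 CPM in either library. No test, set test or replicate error was possible. Cells were thinned without replacement to 7500 UMIs. Scaling factors came from edgeR 4.0.16 (TMM) in R 4.3.3 and from a median-of-ratios calculation. That calculation and the rest used Python 3.11.15 with numpy 2.4.6 and scipy 1.17.1. Only the fold calls, the intervals of ratios and the thinning were tested on simulated data. The other genes named were pathway genes past the threshold, the receptors and SMADs, and the 3 genes most like each member; GDF5, BMP2, GDF10 and the genes within the threshold were named as members of the pathway list after their values were seen. Promoter sequences are RefSeq's (GRCh38.p14).

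The members and all gene lists were chosen with earlier results of these data known.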

Additional observations from a re-analysis of the deposited data

Results flagged for a closer look

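SMAD6 differed in opposite directions inside the 2 clusters of the small set shared by both libraries. In cluster 7 its level was 16.4 CPM in TGFB1 cells and 9.79 CPM in untreated cells, a ratio of 1.67 (1.22 to 2.31), and in cluster 9 it was 24.2 CPM in TGFB1 cells and 48.3 CPM in untreated cells, a ratio of 0.501 (0.366 to 0.683). The difference between the clusters was not tested, since each cluster holds 1 library per group, and the values rest on 107 and 67 UMIs in cluster 7 and on 78 and 95 UMIs in cluster 9. SMAD6 was not alone in this. Ratios in clusters 7 and 9 were 1.21 and 0.649 for ID1, 1.17 and 0.893 for ID2, and 1.12 and 0.447 for ID4. They were 1.10 and 0.610 for BAMBI and 1.29 and 0.801 for SMAD9. ID3 and GDF6 were higher in both clusters, and BMP4 and GREM1 lower. In cluster 7 the intervals of ID4, BAMBI and BMP4 held 1. Of all genes counted, 5.03% were higher and 4.95% lower in cluster 7, and 9.69% and 17.8% in cluster 9.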

How the results depend on the processing

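The calls of the 10 members kept their side of the 1.5-fold threshold under all 10 alternatives that could change their level (TMM factors, median-of-ratios size factors, equal weight per cell, thinning to 7500 UMIs, and leaving out cells under 1000 genes, cells with MKI67 or TOP2A, cluster 5, clusters 7, 9 and 10, cells grouped with the other library, and cells with shared barcodes). The last 2 of these were chosen after the data were seen. The sign turned for 2 members: SMAD6 reached a log2 ratio of 0.09 with median-of-ratios size factors, and ID4 one of -0.06 without cells with MKI67 or TOP2A. With a threshold of 2-fold, 2 members (ID3 and GDF6) were higher, 5 pathway genes were higher and 1 lower, and 395 of all genes were higher and 661 lower. The 3 lower pathway genes became 1 with TMM factors, with median-of-ratios size factors, with equal weight per cell and without cells with MKI67 or TOP2A, and 8 of 39 with a minimum of 1 CPM. With median-of-ratios size factors 1416 of all genes were higher and 973 lower; 2726 were lower with a minimum of 1 CPM and 759 with one of 20 CPM. Thinning to 5000 or 10000 UMIs moved most shares of cells, as a share depends on depth. No paired analysis was possible because each group has 1 library, and no library could be left out for the same reason. Depth limited GDF6 in untreated cells (27 UMIs) and the counts of BMP4 inside clusters 7 and 9.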
